A study of Saccharomyces cerevisiae with 6 samples.

Results

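The mRNA levels of 10 genes of the retrograde pathway of budding yeast were compared: the regulators RTG1, RTG2, RTG3 and MKS1 and the target genes CIT1, CIT2, DLD3, ACO1, IDH1 and IDH2. They were chosen by locus tag from the 6256 genes on the array, and each was read by 1 probe. All 10 probes were well above background on all 6 arrays, so no member was lost to the filter on dim probes. RNA came from Saccharomyces cerevisiae with a PHO80 deletion (3 arrays) and from wild-type cells (3 arrays). Both strains had the BY4741 background, a haploid laboratory strain of mating type a, and both were sampled after 6 h of fermentation on 80 g/l xylose. PHO80 encodes a cyclin that directs the kinase Pho85, and together they hold back the phosphate starvation response while phosphate is plentiful. The labels do not say how the deletion was made, how many clones it stands for or whether replicates were separate cultures.

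The retrograde pathway carries signals from mitochondria to the nucleus. Rtg1 and Rtg3 are basic helix-loop-helix proteins that bind DNA as a pair, and Rtg3 is kept phosphorylated in the cytoplasm while the pathway is off. Mks1, bound to 14-3-3 proteins, is the inhibitor, and Rtg2 relieves it by binding Mks1. When respiration fails, or when glutamate runs short, the pair enters the nucleus and transcribes genes for the first steps of the tricarboxylic acid (TCA) cycle, which supply ketoglutarate for glutamate synthesis. CIT2 and DLD3 are the classical reporters of the pathway. CIT1, ACO1, IDH1 and IDH2 are driven by the Hap complex in respiring cells, and come under Rtg1 and Rtg3 when respiration is impaired.

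The arrays fell into groups that bear on every value. The 75th percentile of the signal lay between 2404 and 5011, and 92.0% to 94.6% of probes exceeded background clearly. None of the spots was saturated. In either strain, arrays 1 and 3 differed by no more than the noise among the 7 spots of a probe and were averaged, so each strain had 2 samples. Deletion array 2 stood apart from its companions, by a median of 0.385 on the log2 scale over the 5863 genes tested. The wild-type arrays were nearly alike, with a median range of 0.05, so the 2 wild-type samples were close to repeats of 1 sample. The strains were hybridised on different slides with different scans, and the effects of slide and deletion cannot be told apart. The standard errors and p-values cover only the spread between these samples, and the small number of arrays limits the precision. On no deletion array did PHO80 reach a signal well above background, and its message there was lower by at least 27.4-fold (limma adjusted p = 0.00153). URA3, a marker gene that BY4741 lacks, read 6.11, 5.55 and 5.90 on the deletion arrays and 3.79, 3.74 and 3.75 on the wild-type arrays. That is a log2 fold change of 2.02 ± 0.21 (limma adjusted p = 0.00497), and its part in the values of the 10 genes was not tested. HIS3, LEU2 and MET17, which that strain also lacks, were not well above background on any of the 6 arrays.

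Most of the 10 genes were higher in the deletion strain. By limma with a Benjamini-Hochberg adjusted p under 0.05 over all tested genes, 7 rose (RTG1, MKS1, CIT1, CIT2, DLD3, IDH1 and IDH2), 1 fell (RTG3) and RTG2 and ACO1 did not pass. Among all tested genes 19.2% were called higher and 34.6% lower. The 10 genes had a median log2 fold change of 0.75, against -0.28 for all tested genes. That general median depends on the scaling of the arrays: it was 0.01 with median centring of each array and 0.03 with quantile normalization. Changes relative to it are therefore given as well, and the 10 genes lay a median of 1.03 above it, or 0.67 above after quantile normalization. On all 10 genes the arrays of one strain lay wholly outside the range of the other, but this was also so for 82.0% of tested genes and says little about these members. Without wild-type array 2 the count was 3 higher and none lower by limma, with 4 and 0 at an unadjusted p under 0.05. That fit holds 1 wild-type sample and takes its spread from the deletion arrays, pooled over genes of like intensity and not gene by gene. Without deletion array 2, where the spread comes from the near-identical wild-type arrays, it was 7 higher and 3 lower.

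**Figure D1:**
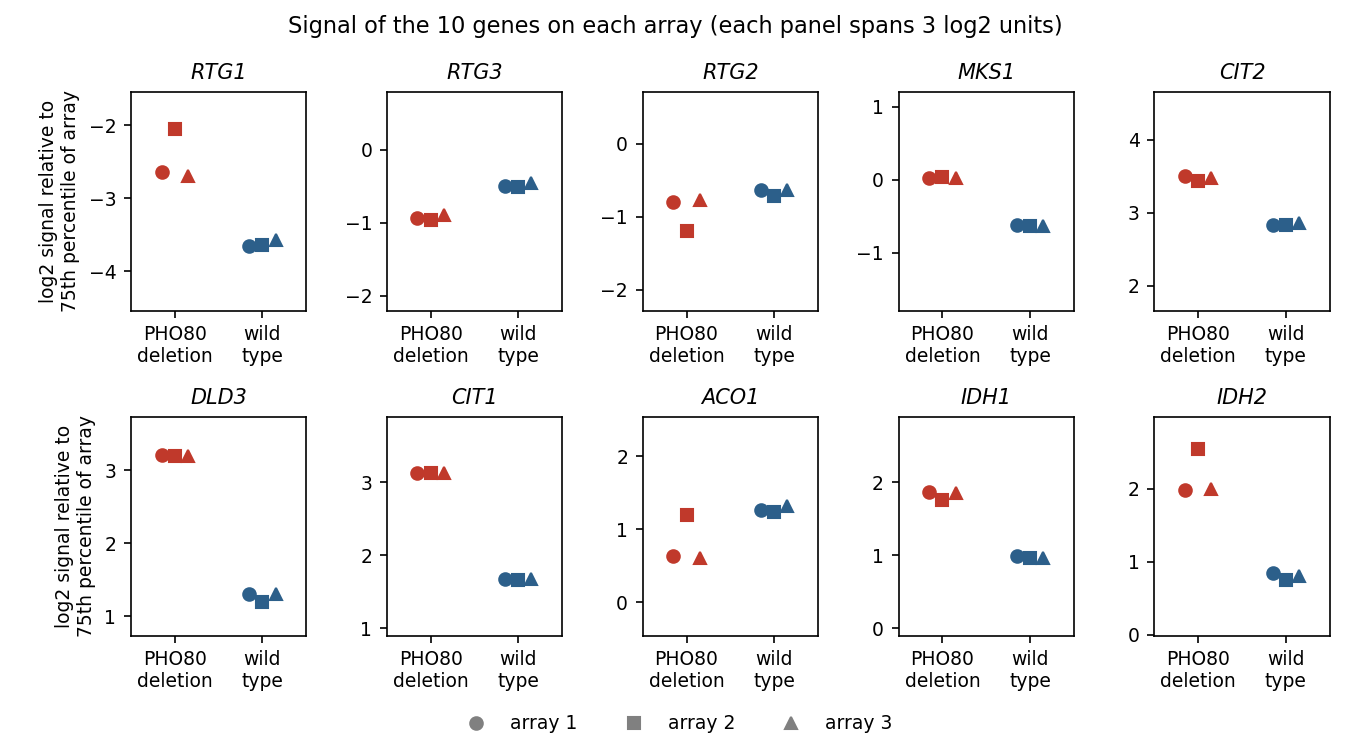
Signal of each gene on the 3 PHO80 deletion arrays (red, left) and the 3 wild-type arrays (blue, right), as log2 relative to the array's 75th percentile; the marker shape gives the array number and every panel spans the same height. CIT1, DLD3, MKS1 and CIT2 form 2 tight and separate levels, whereas deletion array 2 departs from arrays 1 and 3 on RTG1, RTG2, ACO1 and IDH2.

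The reporter genes differed in how far they rose. DLD3 encodes a cytoplasmic enzyme that turns 2-hydroxyglutarate into ketoglutarate. It read 3.21, 3.19 and 3.2 on the deletion arrays and 1.30, 1.20 and 1.30 on the wild-type arrays. These levels, and all that follow, are log2 signals minus the 75th percentile of the same array. The 3 deletion arrays thus lay together, well above the wild-type arrays. The log2 fold change was 1.94 ± 0.11 (SE), or 3.85-fold (adjusted p = 0.00248, limma), the largest of the 10. Only 2.64% of tested genes had a higher one, and DLD3 was called under all 19 alternatives tried, with values of 1.66 to 2.24.

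CIT2 encodes the peroxisomal citrate synthase of the glyoxylate cycle, and its message is the usual measure of retrograde activity. It stood at 3.50, 3.44 and 3.48 on the deletion arrays, against 2.83, 2.83 and 2.86 on the wild-type arrays. The strains did not overlap, and CIT2 rose by 0.63 ± 0.11 (1.55-fold, adjusted p = 0.016, limma). Its rise ended with quantile normalization, where the log2 fold change was 0.18 (adjusted p = 0.269), or 0.15 relative to all genes. Without wild-type array 2 the value was 0.62 and did not pass (adjusted p = 0.376). Of the 5 target genes called, CIT2 was the only one that lost its call through the scaling of the arrays.

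Among the TCA genes of the 10, CIT1 had the lowest adjusted p. It encodes the mitochondrial citrate synthase, the paralog of CIT2. CIT1 read 3.13, 3.12 and 3.12 on the deletion arrays and 1.67, 1.66 and 1.68 on the wild-type arrays, with no more than 0.02 between arrays of a strain. It rose by 1.45 ± 0.11 (2.73-fold, adjusted p = 0.00319, limma) and was called under all 19 alternatives (1.15 to 1.74). Probe sequences were not used here, so whether the probes of CIT1 and CIT2 bind each other's message was not checked. The difference between the changes of these paralogs was not tested.

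IDH1 and IDH2 encode the subunits of the mitochondrial NAD-dependent isocitrate dehydrogenase, which makes ketoglutarate. IDH2 stood at 1.98, 2.55 and 2.00 on the deletion arrays and at 0.84, 0.75 and 0.80 on the wild-type arrays. It rose by 1.49 ± 0.23 (2.80-fold, adjusted p = 0.0107, limma) and was called under all 19 alternatives. Deletion array 2 was the highest of the 6 for this gene, and without it the log2 fold change was 1.20.

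IDH1 read 1.86, 1.76 and 1.85 on the deletion arrays and 0.99, 0.96 and 0.96 on the wild-type arrays. The rise was 0.84 ± 0.11 (1.79-fold, adjusted p = 0.0072, limma), and here deletion array 2 lay slightly below its companions. Without wild-type array 2, IDH1 kept a log2 fold change of 0.83 but did not pass (adjusted p = 0.162).

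ACO1, the mitochondrial aconitase that acts between citrate synthase and isocitrate dehydrogenase, did not follow the other TCA genes. It read 0.63, 1.20 and 0.61 on the deletion arrays, against 1.26, 1.24 and 1.32 on the wild-type arrays. Deletion array 2 was within 0.04 of the wild-type range, whereas arrays 1 and 3 lay clearly below it. The log2 fold change was -0.35 ± 0.23, with a 95% interval from -1.0 to 0.29 (adjusted p = 0.26, limma). That interval leaves out rises as large as those fitted for CIT1, CIT2, DLD3, IDH1 and IDH2, but it allows a fall of nearly 2-fold. Without deletion array 2 the value was -0.64 and passed (adjusted p = 2.25e-12), in a fit whose spread comes from the wild-type arrays alone.

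**Figure D2:**
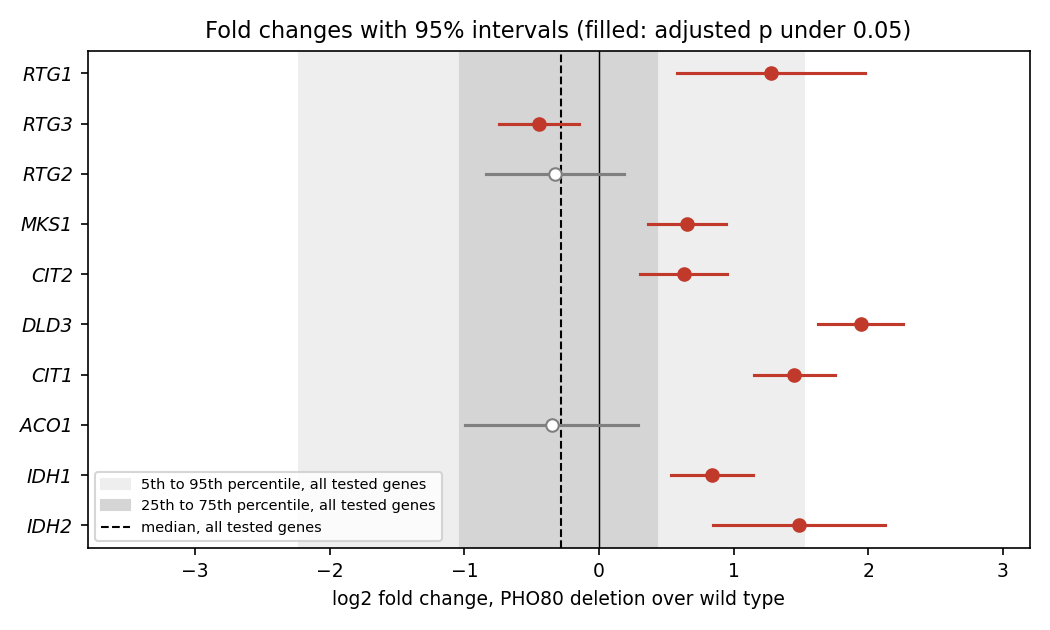
Log2 fold change of each gene, PHO80 deletion over wild type, with its 95% interval from the limma fit; filled points passed the adjusted p threshold of 0.05. The shaded bands and the dashed line show where the fold changes of all tested genes fell: RTG2, RTG3 and ACO1 lie within the middle band and the other 7 genes to its right.

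The regulators moved in different directions. RTG1, one partner of the DNA-binding pair, read -2.64, -2.05 and -2.70 on the deletion arrays and -3.66, -3.65 and -3.58 on the wild-type arrays. Deletion array 2 was the highest, and the strains did not overlap. RTG1 rose by 1.28 ± 0.25 (2.42-fold, adjusted p = 0.0191, limma). The rise was 0.97 without deletion array 2 and 1.99 after quantile normalization, and it missed the threshold without wild-type array 2 (1.26, adjusted p = 0.0521).

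RTG3, the other partner, read -0.94, -0.96 and -0.90 on the deletion arrays and -0.49, -0.51 and -0.45 on the wild-type arrays. It fell by 0.45 ± 0.11 on the log2 scale (1.36-fold lower, adjusted p = 0.0304, limma). Relative to the median of all genes that is only -0.17, and RTG3 was not called with median centring (-0.16, adjusted p = 0.324) or quantile normalization (-0.31, adjusted p = 0.0668). Nor was it called without wild-type array 2 (-0.47, adjusted p = 0.471). The messages of the 2 partners thus did not change together on these arrays, although the difference between them was not tested.

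RTG2, the sensor that relieves the inhibitor, stood at -0.80, -1.20 and -0.77 on the deletion arrays and at -0.63, -0.71 and -0.63 on the wild-type arrays. Deletion arrays 1 and 3 were within 0.2 of the wild-type arrays and array 2 was lower. The log2 fold change of -0.32 ± 0.18 did not pass (adjusted p = 0.204, limma), with a 95% interval from -0.84 to 0.19, and it lay -0.04 from the median of all genes. Without deletion array 2 it was smaller, -0.12, and passed on the spread of the wild-type arrays (adjusted p = 0.00579).

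MKS1, the inhibitor, read 0.02, 0.04 and 0.02 on the deletion arrays and -0.62, -0.63 and -0.63 on the wild-type arrays. Both strains varied by no more than 0.02 among their arrays. MKS1 rose by 0.65 ± 0.10 (1.57-fold, adjusted p = 0.0112, limma). It did not pass without wild-type array 2 (0.65, adjusted p = 0.281).

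Deletion array 2 thus split the members. On 6 of them (RTG3, MKS1, CIT1, CIT2, DLD3 and IDH1) it lay within 0.1 of the mean of arrays 1 and 3, a closeness found for 13.9% of tested genes. On the other 4 it lay over 0.4 away: higher on RTG1 by 0.61, on ACO1 by 0.58 and on IDH2 by 0.57, and lower on RTG2 by 0.41. Among tested genes 48.2% were over 0.4 away. The spread among the 7 spots of a member was small beside these shifts, with an SD of 0.023 to 0.14.

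Several genes had profiles almost equal to that of CIT2. Over the 6 arrays, with each gene centred on its own mean, the closest of 5663 genes were ADH3 (root mean square difference of 0.009), YLR177W (0.018) and PAI3 (0.022). Their log2 fold changes were 0.62, 0.63 and 0.60. With 6 arrays in 2 strains, such likeness is a description of these arrays.

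Genes that act on the pathway from outside the 10 were also uneven. Of 8 further regulators 3 rose, 4 fell and TCO89 did not pass (0.20, adjusted p = 0.376, limma). Their median log2 fold change was -0.41, which is -0.13 relative to all genes, of which 19.2% were called higher and 34.6% lower. The 14-3-3 genes BMH1 and BMH2, whose products hold Mks1 in its inhibitory state, rose by 1.34 ± 0.18 and 0.97 ± 0.16, and LST8, a shared subunit of both TOR kinase complexes that restrains the pathway, rose by 1.18 ± 0.19. The kinase genes TOR1 and TOR2 fell by 2.14 ± 0.36 and 1.05 ± 0.11 on the log2 scale. KOG1, a subunit of the first TOR complex, fell by 1.56 ± 0.19. GRR1, the F-box protein that marks free Mks1 for destruction, fell by 1.02 ± 0.12. The adjusted p of these 7 genes ran from 0.00537 to 0.0133 (limma). After quantile normalization BMH1, TOR1 and KOG1 had smaller changes of 0.84, -1.41 and -0.62, and GRR1 was not called (adjusted p = 0.0501, limma). TCO89 was called higher there (0.69, adjusted p = 0.016, limma). The list then had 4 higher and 3 lower, with a median of 0.11, or 0.08 relative to all genes. Without wild-type array 2 the list had 2 higher and 2 lower, as BMH2, TOR2 and GRR1 did not pass there (adjusted p = 0.121, 0.0697 and 0.133) at log2 fold changes of 0.94, -1.06 and -0.98.

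The Hap regulators, which govern CIT1, ACO1, IDH1 and IDH2 in respiring cells, were mostly higher. Of the 5 genes 4 rose and none fell (also 4 and 0 at an unadjusted p under 0.05, limma). Among all tested genes 19.2% were called higher and 34.6% lower. HAP5 rose by 2.45 ± 0.30, HAP3 by 1.41 ± 0.18 and HAP2 by 1.37 ± 0.26, which encode the DNA-binding subunits. HAP4, the activating subunit, rose by 0.47 ± 0.11, but its call ended after quantile normalization (0.21, adjusted p = 0.109). It also ended when wild-type array 2 was left out (0.47, adjusted p = 0.489). HAP1, which encodes a separate heme-responsive activator, stood at -0.01 ± 0.13 (adjusted p = 0.971). Without deletion array 2 the counts were 4 higher and 1 lower.

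Of 13 enzymes at the same steps as the targets and carriers of citrate or ketoglutarate, 1 rose, 4 fell and 8 did not pass, beside 19.2% and 34.6% of all tested genes. Their median was 0.00, which is 0.28 relative to all genes. IDP2, the cytosolic NADP-dependent isocitrate dehydrogenase, fell by 1.37 ± 0.27 on the log2 scale (adjusted p = 0.0196, limma). The DLD3 paralog DLD2 had a value of -0.03 ± 0.10 (adjusted p = 0.807). That value covers DLD2 alone and does not show the rise of DLD3 to be particular to DLD3. CIT3, a mitochondrial methylcitrate and citrate synthase, stood at 0.90 ± 0.36 and did not pass (adjusted p = 0.105). PYC1, a pyruvate carboxylase gene reported to respond to retrograde signalling, read 2.28, 1.40 and 2.22 on the deletion arrays, on both sides of the wild-type arrays at 1.94, 1.95 and 1.95. The counts were 3 higher and 3 lower with median centring or quantile normalization, 7 and 4 without deletion array 2, and 0 and 2 without wild-type array 2.

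For the TCA steps past ketoglutarate, none of 11 genes rose, 4 fell and 7 did not pass (1 higher and 5 lower at an unadjusted p under 0.05, limma). The share that fell is near the 34.6% of all tested genes, and the median of -0.42 is -0.14 relative to all genes. SDH3, a membrane subunit of succinate dehydrogenase, fell by 1.5 ± 0.10 on the log2 scale (adjusted p = 0.00308), and LSC2, a succinyl-CoA ligase subunit, fell by 1.39 ± 0.11 (adjusted p = 0.00335). KGD2, a subunit of ketoglutarate dehydrogenase, stood at 0.89 ± 0.31 and did not pass (adjusted p = 0.076). The list had 1 higher and 2 lower with median centring, 2 and 6 without deletion array 2, and 0 and 2 without wild-type array 2.

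Of 5 glutamate and glutamine enzyme genes none rose, 2 fell and 3 did not pass, with the same counts at an unadjusted p under 0.05 (limma). Their median was -0.07, which is 0.21 relative to all genes. The share that fell is near the 34.6% of all tested genes, of which 19.2% rose. GDH1, the main NADP-dependent glutamate dehydrogenase, fell by 1.37 ± 0.24 on the log2 scale (adjusted p = 0.0151). GLN1, glutamine synthetase, stood at 0.60 ± 0.26 (adjusted p = 0.121). The glyoxylate and peroxisomal genes had no rise and 5 falls among 9 (2 and 5 at an unadjusted p under 0.05, limma). Only some of these genes act in the glyoxylate cycle of CIT2. The list median of -0.77 is -0.49 relative to all genes, of which 34.6% were called lower. ICL1, isocitrate lyase, fell by 1.33 ± 0.14 (adjusted p = 0.0052) and MLS1, malate synthase, by 1.14 ± 0.14 (adjusted p = 0.00629). Without wild-type array 2 MLS1 did not pass (adjusted p = 0.0918), and these lists had 1 and 1 falls. With deletion array 2 left out, 1 glutamate gene and 3 glyoxylate or peroxisomal genes were higher and 3 and 6 lower. The glutamate list had 1 lower gene with median centring, where 2 glyoxylate or peroxisomal genes were higher and 4 lower.

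**Figure D3:**
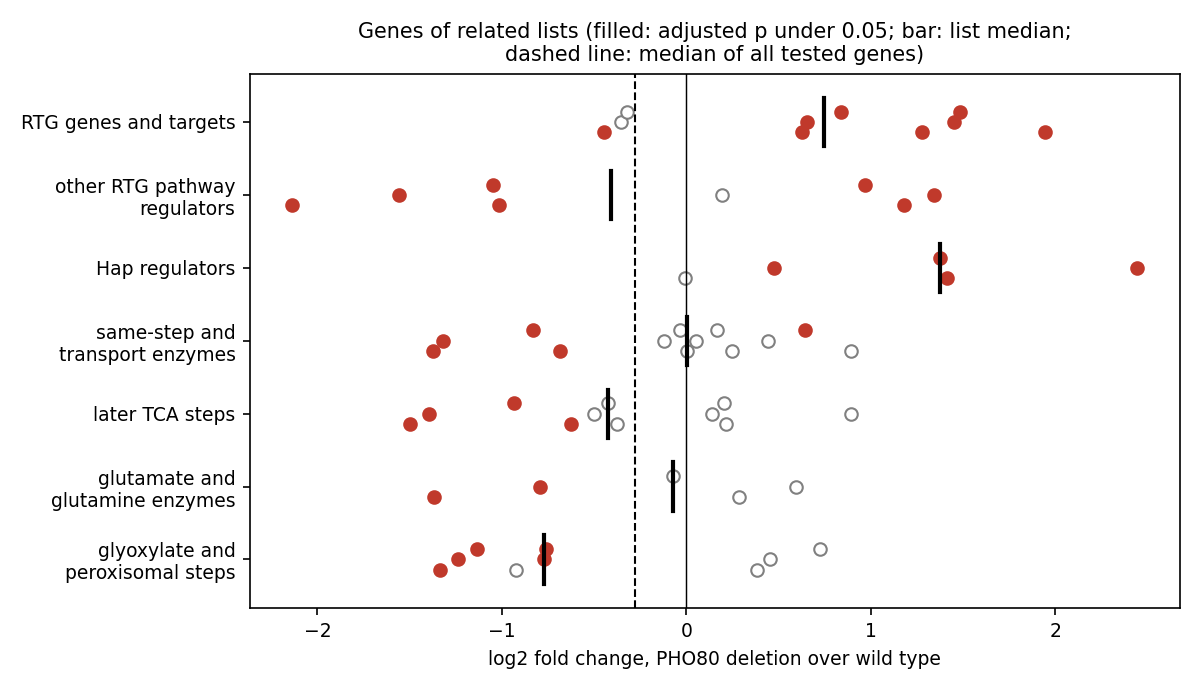
Log2 fold change of each tested gene in the 10 retrograde genes and in 6 lists of related genes, PHO80 deletion over wild type; filled points passed the adjusted p threshold of 0.05, black bars are list medians and the dashed line is the median of all tested genes. The medians of the retrograde genes (0.75) and of the Hap regulators (1.37) lie to the right of that line, and those of the later TCA steps (-0.42) and the glyoxylate and peroxisomal steps (-0.77) to its left.

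Messages from mitochondrial DNA were lower on the same deletion arrays. All 8 listed protein genes of the mitochondrial genome fell, beside 34.6% of all tested genes. VAR1, a mitochondrial ribosomal protein gene, fell by at least 12.4-fold (adjusted p = 0.00226, limma). COB, the apocytochrome b gene, read -9.34, -9.62 and -9.89 on the deletion arrays, where it was not well above background, and 4.49, 4.55 and 4.56 on the wild-type arrays. The deletion strain had at least 4630-fold less of it (adjusted p = 0.000213, limma), and at least 1140-fold less COX1, which encodes a cytochrome oxidase subunit (adjusted p = 0.000248). These bounds set the wild-type mean against the lowest signal well above background on the deletion arrays. OLI1, an ATP synthase subunit gene, stood at -7.81, -7.30 and -7.43 on the deletion arrays and at 7.33, 7.31 and 7.46 on the wild-type arrays. The fall of these messages was present on all 3 deletion arrays. On the same arrays 7 of the 10 retrograde genes lay wholly above wild type and 3 wholly below it. The strains did not overlap, in either direction, for 82.0% of tested genes, so lack of overlap alone does not set the retrograde genes apart. That share does not bear on the directions, and the shares of all genes wholly above or below wild type are not given here. By limma, 19.2% of all tested genes were called higher and 34.6% lower. The part of the mitochondrial messages in the retrograde result was not tested, and the arrays do not separate it from that of the PHO80 deletion, since no deletion array had them at the wild-type level. RNA was pooled over each sample, so fewer cells with a message and less message per cell cannot be told apart.

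**Figure D4:**
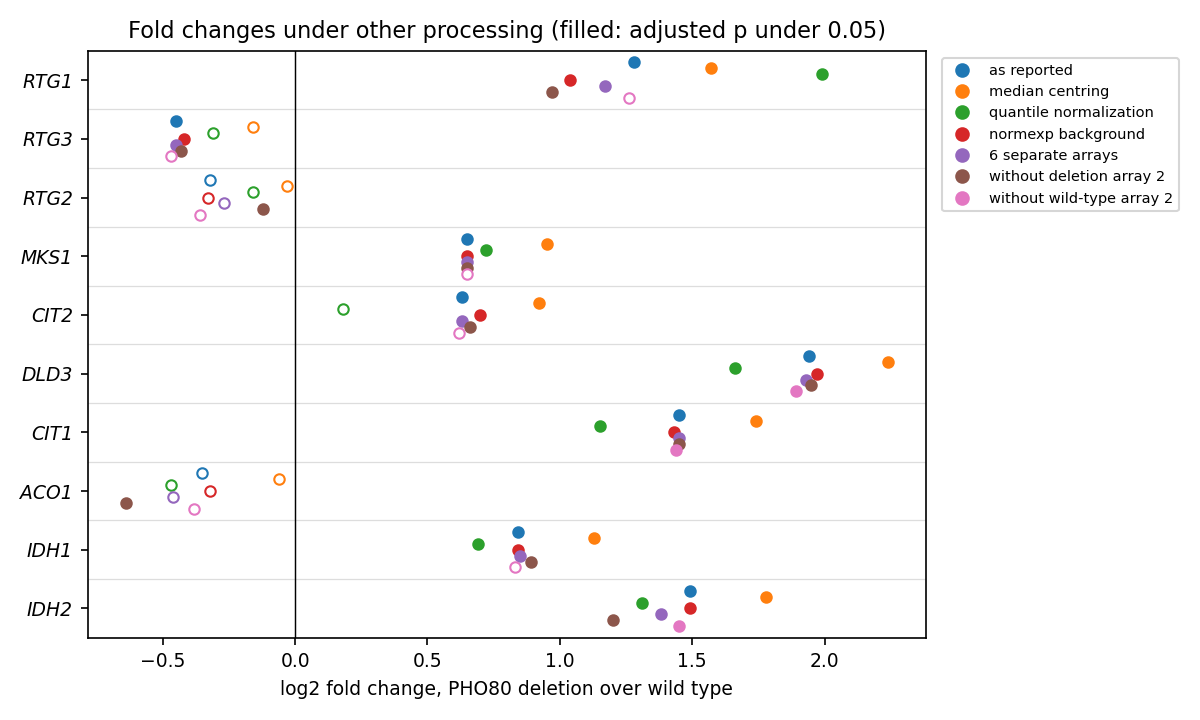
Log2 fold change of each gene, PHO80 deletion over wild type, as reported and under 6 other settings given by colour; filled points passed the adjusted p threshold of 0.05. DLD3, CIT1 and IDH2 are filled throughout, CIT2 comes nearest to 0 under quantile normalization (0.18), and the open points of RTG1, MKS1, CIT2 and IDH1 include the setting without wild-type array 2.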

How the data were processed

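Cy3-labelled cRNA from total RNA was read on Agilent arrays in 1 colour, per the labels' protocols. The deposited scanner values are linear spot intensity, made with Agilent Feature Extraction 10.1.1.1 per the submitters' processing notes. Per the file headers, the processed signal had local background removed on each array, with no scaling across arrays. The authors' value table also holds intensity, and followed the scanner values closely (r of log2 values 0.9998, column medians 746.5 to 1670). How the authors combined its spots is not stated.

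Control and outlier spots (1.12% to 1.88%) were left out. Each array's 75th percentile was subtracted from the log2 signal, and the 7 spots of a probe were averaged. RefSeq (assembly R64) gave symbols for 5756 of the 6256 systematic names. No build is named for the array and no probe or promoter sequence was used here. A probe was above background on an array where over 0.5 of its spots were, and genes above background on at least 3 arrays were tested.

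For 5664 probes above background everywhere, squared differences between arrays of a strain were divided by the variance among spots. For arrays 1 and 3 the median ratio was 0.412 in the deletion strain and 0.435 in the wild type. Both lie under the 0.484 that spot noise gives, and these arrays were averaged. The pairs with array 2 gave 88.6 and 94.8 in the deletion strain, but only 0.634 and 0.669 in the wild type. The 2 wild-type samples were thus close to repeats of 1 sample, although the fit counted them as 2. The comparison used limma 3.58.1 under R 4.3.3, without the replicate number (lmFit, then eBayes with a trend on intensity). It had 2 residual and 1.93 prior degrees of freedom. The prior degrees of freedom were infinite in 3 alternatives. These were without wild-type array 2, with all wild-type arrays as 1 sample, and with the replicate block on the averaged samples. There a gene's own spread was not used, and genes of like intensity shared the same spread. The fit as reported was also run on simulated data with equal spread in both strains. These arrays had unequal spread, so that run does not show how the fit holds here. Mean ± SE are from the fit. The members, the lists and the rule for averaging arrays were chosen with earlier results of these data known. All 10 members were named, with up to 4 called genes per related list by p and others for their role; 1 gene of these lists is not reported here by name. Alternatives changed the scaling, background, filters, variance model, samples, replicate block and source of values. Figures were drawn with matplotlib 3.10.9.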

Additional observations from a re-analysis of the deposited data

How the results depend on the processing

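Of 190 values of the 10 members under 19 alternatives each, none changed sign, 174 stayed on their side of the threshold, 14 lost a call and 2 gained one. The planned normexp correction on mean spot signal was replaced by one on the median spot signal, since the scanner values had no mean signal. This replacement was chosen after seeing the data. With all wild-type arrays as 1 sample, 519 genes were higher and 1130 lower, and 4 members were higher and none lower (4 and 0 at an unadjusted p under 0.05, limma). RTG3 alone was called lower as reported, and the count of lower members was 0 with median centring, with quantile normalization and with the replicate block (0, 1 and 0 at an unadjusted p under 0.05). Leaving out 1 array at a time gave 523 to 2200 higher and 1122 to 3289 lower genes, and 3 to 7 higher and 0 to 3 lower members. The extremes came from array 2 of either strain, where 1 strain is left with 1 sample, assumed to vary like the other. The replicate numbers showed no sign of pairing the arrays. Deviations of same-numbered arrays correlated at -0.206, -0.17 and -0.0103, and 0 of 3 deletion arrays correlated best with their own number. The wild-type arrays differed by little more than spot noise, so this check could not exclude a pairing. With the replicate block 1132 genes were higher and 2212 lower, with 6 higher members, as CIT2 and RTG3 were not called (adjusted p = 0.0522 and 0.141). With 6 separate arrays and that block the counts were 1485 and 2486, and 7 higher and 1 lower members. The causes of these shifts were not tested.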
